A study of Homo sapiens with 9 samples.

Results

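The E proteins TCF3, TCF12 and TCF4, the inhibitors of DNA binding ID1, ID2 and ID3, and the basic helix-loop-helix (bHLH) and LIM-only oncogenes TAL1, LYL1, LMO1 and LMO2 were examined in RNA of ALL-SIL, a human line of T-cell acute lymphoblastic leukaemia origin (T-ALL), in which the homeobox oncogene TLX1 is active. These 10 genes were taken by symbol from the 58096 gene identifiers of the count tables, through the GENCODE release 29 annotation of GRCh38. Poly(A)-selected RNA was sequenced in 9 libraries. Cells of the single line were electroporated with TLX1 siRNA1, TLX1 siRNA2 or NTC siRNA, with 3 libraries per siRNA numbered as replicates 1 to 3. All groups thus share the same line and the electroporation, and the NTC siRNA libraries serve as controls. No siRNA sequence, dose or harvest time is given in the sources used here.

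E proteins bind the DNA word CANNTG, the E box, as dimers, and drive much of the early T-cell gene programme, including the recombinase and pre-T-cell receptor genes. ID proteins carry the dimerization helix but no DNA-binding region, so an ID-E protein dimer does not bind DNA, and their genes respond to pre-T-cell receptor and BMP or TGF-beta signals. TAL1 and LYL1 pair with E proteins, and LMO1 and LMO2 bridge such dimers to LDB1 and GATA factors. Ectopic expression of these oncogenes marks T-ALL subgroups distinct from the one defined by TLX1.

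Short stretches upstream of 3 members, ID1, ID2 and TCF12, are shown to mark where CANNTG, the general form of the E box, occurs. No stretch of ID3 is shown, and binding of E proteins at the marked words was not measured. The stretches come from RefSeq promoters (GRCh38.p14), reference sequence that was not measured in these libraries. For these promoters 9 of the 10 members matched an entry. LMO2 did not match. Capitals mark a CANNTG word, and all are read 5′ to 3′ on the plus strand.
ID1, chr20:31605039-31605282: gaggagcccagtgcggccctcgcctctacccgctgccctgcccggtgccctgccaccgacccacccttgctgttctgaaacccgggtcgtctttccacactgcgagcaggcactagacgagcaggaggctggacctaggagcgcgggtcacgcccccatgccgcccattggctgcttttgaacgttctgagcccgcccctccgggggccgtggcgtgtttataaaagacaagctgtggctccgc
ID2, chr2:8681839-8681868: tatttaccacccCAGCTGggctcgcgcccc
TCF12, chr15:56917895-56917924: aagaactagtccCACGTGcagttcggttgc
The ID1 stretch lies just upstream of the gene model and holds no E box. In ID2 the word CAGCTG begins 205 bases upstream of the RefSeq start, within a longer ID2 transcript of GENCODE, and in TCF12 the word CACGTG begins 183 bases upstream of the first of 5 listed starts. Over the 250 bases before the start, both strands searched, the promoters of ID1, ID3, TCF3, LYL1 and LMO1, each with a single listed start, held no CANNTG, and those of TCF12, TCF4 and TAL1 differed between starts, whereas 61.8% of 35116 promoters held one. CAGCTG, a special case of CANNTG and its own reverse complement, occurred in 13.99% of promoters. The GC-box-like word GCGGGGGCG, bound by EGR factors, occurred in 4.72% and in no member promoter, and CAGGTG (17.5% of promoters) was likewise found in none. The CpG observed-to-expected ratio of the 250 bases was 0.709 for ID1, 0.997 for ID2 and 1.01 for ID3, against a median of 0.558 over all promoters.

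The libraries held between 58305492 and 99524663 gene counts. All 12 T-cell markers were tested, with a summed level of 4879 to 5448 TPM (transcript abundance corrected for length and depth), although TRAC, the T-cell receptor alpha constant gene, had a median of only 0.878 TPM. B-cell markers summed to 41.9 to 64.5 TPM, mostly CD79A (median 30.3 TPM) and CD79B (16.1 TPM), with MS4A1 at no more than 1 count. Myeloid markers summed to at most 1.83 TPM and erythroid and megakaryocyte markers to at most 0.587 TPM, with HBA1, PF4 and GP9 at 0 in all 9 libraries. TLX1, the targeted gene, went against one label. Its read share after TMM scaling (scaled CPM) were 184, 167 and 183 in NTC replicates 1 to 3, 406, 457 and 387 in the libraries labelled siRNA1, and 198, 231 and 179 in those labelled siRNA2. Against NTC, TLX1 under the siRNA1 label was 2.33-fold higher (log2 1.22, SE 0.08, adjusted p = 2.05e-10, edgeR quasi-likelihood test with Benjamini-Hochberg adjustment), and it did not pass between siRNA2 and NTC (log2 0.18, adjusted p = 0.495). Taken by label, no difference from NTC given below therefore came with a called fall of TLX1 mRNA. All directions are given by label, and whether the labels match the siRNA delivered was not tested. Whether replicates came from separate cultures is not in the labels, so every p-value here reflects the spread between these libraries alone, which may be technical.

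TAL1, LMO1 and LMO2 were silent in this TLX1-expressing line. LMO1, a LIM-only bridging protein, had 0 counts in all 9 libraries, which together hold 739099642 gene counts and allow a level of up to 0.00406 CPM for a count of 0, counting error only. TAL1, whose bHLH domain pairs with E proteins, had a single count, in the replicate 1 library labelled siRNA1. LMO2, the LIM-only protein best known for activation in T-ALL and needed in blood stem cells, had 7 counts in all, with 4 in the replicate 3 library labelled siRNA1 and 1 in each of 3 others. These 3 genes failed the filter on low counts and entered no test, so 7 of the 10 members were tested. No level of TAL1, LMO1 or LMO2 separated the labels at this depth.

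LYL1, a close relative of TAL1, was the one member of the oncogene group that was clearly detected. Its level was 8.12, 8.05 and 7.58 TPM in NTC replicates 1 to 3, 7.26, 7.06 and 7.70 TPM in the libraries labelled siRNA1, and 7.28, 7.35 and 6.49 TPM in those labelled siRNA2. The 9 values lay in a narrow band, and LYL1 ranked at the 56.9th percentile of 19755 protein-coding genes by median TPM. TAL2, another relative of TAL1 and LYL1, reached a median of 2.61 TPM from 13 to 54 counts per library.

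TCF3 and TCF12 supplied nearly all E protein mRNA. TCF3, which encodes E12 and E47 by alternative splicing, was at 197, 235 and 218 TPM in NTC, at 181, 212 and 206 TPM in the libraries labelled siRNA1, and at 215, 239 and 189 TPM in those labelled siRNA2. The 2 splice forms cannot be told apart in counts per gene. TCF12, which encodes HEB, was at 107, 113 and 121 TPM in NTC, at 98.4, 103 and 109 TPM under siRNA1, and at 109, 117 and 133 TPM under siRNA2. TCF3 exceeded TCF12 in 9 of 9 libraries and made up 58.7% to 67.4% of the summed E protein TPM. TCF4, which encodes E2-2 and is the E protein of plasmacytoid dendritic cells and B cells, passed the count filter with only 3 to 27 counts per library and a median of 0.0185 TPM.

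ID3 was the main ID transcript. ID3 was at 159, 126 and 190 TPM in NTC, at 225, 170 and 279 TPM in the libraries labelled siRNA1, and at 157, 110 and 164 TPM in those labelled siRNA2. ID1 was at 43.7, 61.1 and 67.3 TPM in NTC, at 59.3, 64.2 and 77.0 TPM under siRNA1, and at 49.1, 71.4 and 63.7 TPM under siRNA2. ID2, which is known for innate lymphoid and natural killer cell development, was at 4.18, 9.21 and 5.35 TPM in NTC, at 4.93, 10.7 and 8.38 TPM under siRNA1, and at 4.60, 9.93 and 6.84 TPM under siRNA2. ID3 thus made up 57.6% to 77.8% of the summed ID TPM, and ID2 1.70% to 5.18%.

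By median TPM over the 9 libraries the order was TCF3 (212), ID3 (164), TCF12 (109), ID1 (63.7), LYL1 (7.35), ID2 (6.84) and TCF4 (0.0185), followed by the silent genes. Neighbours TCF3 and ID3 overlapped in range, and ID3 exceeded TCF3 in 2 libraries, both labelled siRNA1. ID3 and TCF12 also overlapped, with TCF12 above ID3 in 1 library. TCF12 and ID1 did not overlap, nor did ID1 and LYL1. LYL1 and ID2 were not separated, with LYL1 above ID2 in 4 of 9 libraries. Lengths from merged exons set these levels: with the longest coding transcript the order stayed as given, but the medians of LYL1 and ID2 were 10.6 and 5.03 TPM and their ranges no longer overlapped.

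**Figure D1:**
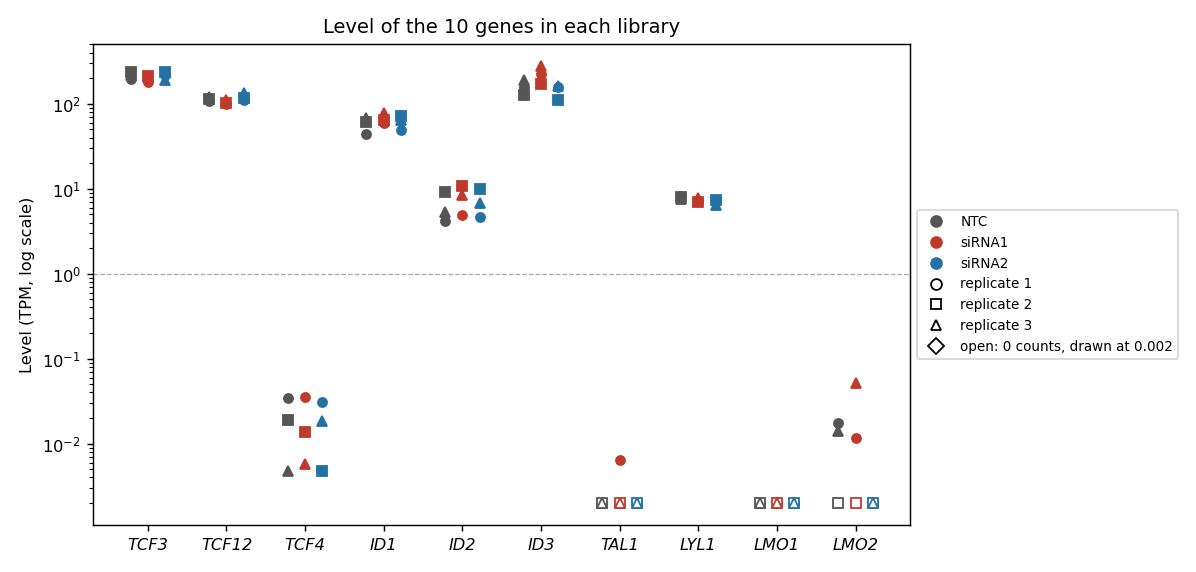
Level of the 10 genes in each library in TPM on a log axis, with colour for the siRNA label and marker shape for the replicate number; open markers are libraries with 0 counts, drawn at 0.002, and the dashed line is 1 TPM. TCF3, TCF12, ID1 and ID3 lie above 40 TPM, LYL1 and ID2 between 4.18 and 10.7 TPM, and TCF4, TAL1, LMO1 and LMO2 below 0.06 TPM.

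The libraries labelled siRNA1 had more ID3 and ID2 mRNA than NTC, while no tested E protein or oncogene passed the test. With the replicate number as a block, 2 of 7 tested members rose and 0 fell at an adjusted p under 0.05, where 11.4% of all 18554 tested genes passed, 5.48% higher and 5.93% lower. ID3 was at 83.4, 61.0 and 93.0 scaled CPM in NTC replicates 1 to 3 (79.1 ± 16.4, SD, n = 3) and at 117, 87.0 and 132 in the libraries labelled siRNA1 (112 ± 23.0, SD, n = 3). Within each replicate number the siRNA1 library was higher by a near-equal factor, 1.40, 1.43 and 1.42, although the groups overlap when the numbers are ignored. The ID3 difference was 1.42-fold (log2 0.50, SE 0.06, adjusted p = 9.06e-06, edgeR quasi-likelihood test). Without the block the ID3 difference did not pass (adjusted p = 0.320), and without the block 1.28% of all genes passed and 0 of 7 members.

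ID2 moved the same way at a much lower level. It was at 2.69, 5.46 and 3.21 scaled CPM in NTC (3.79 ± 1.47, SD, n = 3) and at 3.15, 6.72 and 4.88 in the libraries labelled siRNA1 (4.91 ± 1.79, SD, n = 3). The siRNA1 library was higher in 3 of 3 replicate numbers, by factors of 1.17, 1.23 and 1.52, and the groups overlap. ID2 was 1.30-fold higher (log2 0.38, SE 0.11, adjusted p = 0.0195, edgeR), with an adjusted p of 0.827 without the block. The ID2 call was lost when NTC replicate 3 (adjusted p = 0.168) or siRNA1 replicate 3 (adjusted p = 0.170) was left out.

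ID1 was higher in the siRNA1 library of all 3 replicate numbers but did not pass. Its scaled CPM was 15.8, 20.3 and 22.6 in NTC and 21.2, 22.6 and 25.1 in the libraries labelled siRNA1, so the groups overlap. The ID1 difference was 1.18-fold (log2 0.24, SE 0.09, adjusted p = 0.0753, edgeR). It passed when NTC replicate 3 (adjusted p = 0.0290), siRNA1 replicate 2 (0.0212) or siRNA2 replicate 2 (0.0428) was left out, and with only both groups compared in the fit (0.0265).

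TCF12 was lower in all 3 libraries labelled siRNA1 than in any NTC library, by a small margin that did not pass. It was at 295, 288 and 310 scaled CPM in NTC and at 269, 279 and 273 under siRNA1, a log2 difference of -0.12 (95% interval -0.25 to 0.01, adjusted p = 0.240, edgeR). TCF12 was the 1 of 7 tested members whose groups did not overlap, against 15.8% of all tested genes. TCF3 was at 351, 384 and 361 scaled CPM in NTC and at 320, 368 and 331 under siRNA1, a log2 difference of -0.11 (95% interval -0.26 to 0.04, adjusted p = 0.398, edgeR). LYL1 gave a log2 difference of -0.10 (95% interval -0.29 to 0.10). TCF4, at 3 to 27 counts, gave a log2 difference of -0.11 with an SE of 0.43, an error too wide to limit a change. The median log2 difference of the 7 members was -0.10, beside 0.00 over all tested genes.

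Between siRNA2 and NTC no member differed at the threshold, and few genes did: 0 of 7 members passed and 0.151% of all tested genes. DESeq2 and limma-voom also called 0 members at the adjusted threshold. At an unadjusted p under 0.05, edgeR counted 1 of 7 members, and 1553 of all 18554 tested genes. That member was ID3, at 79.0, 56.5 and 75.8 scaled CPM under siRNA2 (70.4 ± 12.2, SD, n = 3). ID3 was lower than in NTC in 3 of 3 replicate numbers, with a log2 difference of -0.16 (SE 0.07, adjusted p = 0.471, edgeR), the opposite side from siRNA1. ID2 under siRNA2 was at 2.83, 6.24 and 3.89 scaled CPM, a log2 difference of 0.19 from NTC (95% interval -0.04 to 0.41). The intervals of the other detected members were -0.19 to 0.11 for TCF3, -0.07 to 0.18 for TCF12, -0.09 to 0.27 for ID1 and -0.38 to 0.01 for LYL1. No member's groups were free of overlap, against 5.58% of all tested genes. The comparisons of siRNA1 and of siRNA2 with NTC share the NTC libraries.

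**Figure D2:**
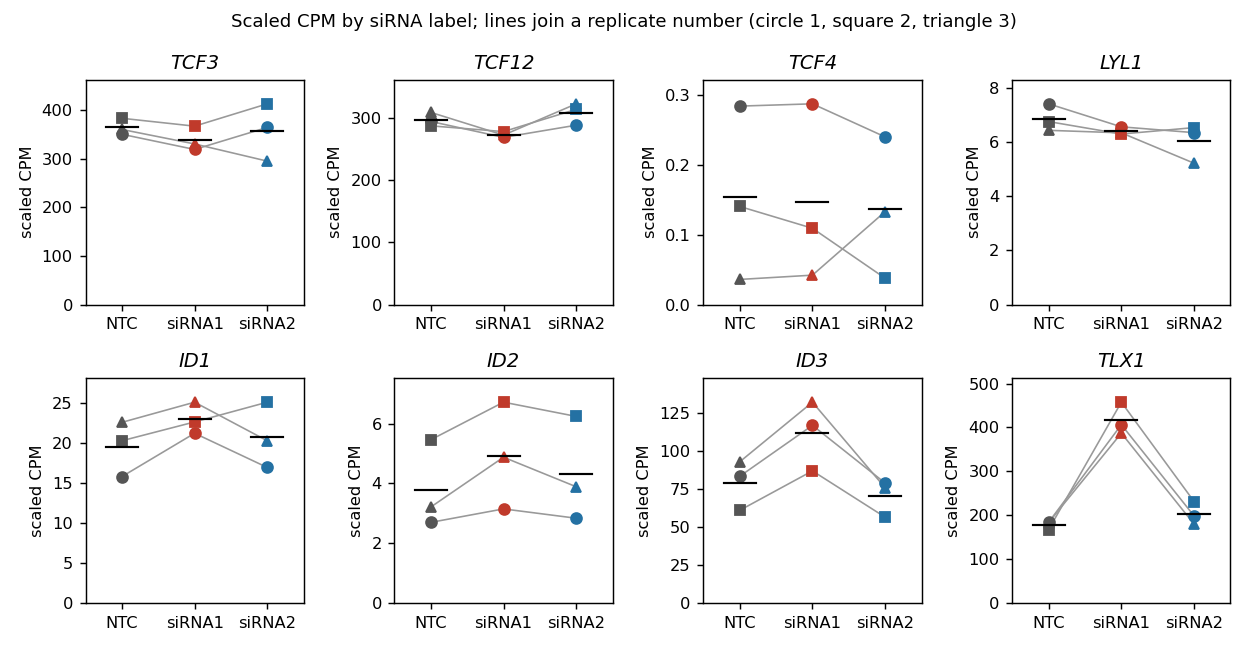
Scaled CPM (linear axes from 0) of the 7 tested members and of TLX1 by siRNA label; each marker is a library, grey lines join libraries of a replicate number and black bars are means of 3. ID3 runs parallel in the 3 replicate numbers, highest under siRNA1 in each, and ID2 is highest in replicate 2 under each label.

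ID3 also separated the 2 TLX1 siRNA labels from each other. All 3 libraries labelled siRNA1 (87.0 to 132 scaled CPM) lay above all 3 labelled siRNA2 (56.5 to 79.0). The ID3 difference was 1.58-fold (log2 0.66, SE 0.07, adjusted p = 2.47e-07, edgeR), with factors of 1.48, 1.54 and 1.74 in replicates 1 to 3. Here 1 of 7 members passed, higher under siRNA1, where 10.6% of all tested genes passed, 5.29% higher and 5.27% lower. Without the block ID3 had an adjusted p of 0.148 with edgeR and passed with DESeq2 (adjusted p = 0.0170), and 1.08% of all genes passed with edgeR. ID2 did not pass (log2 0.19, adjusted p = 0.282, edgeR), so its rise against NTC was not matched by a passing difference between the labels.

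TCF12 was the other member whose siRNA1 and siRNA2 libraries did not overlap, which makes 2 of 7, against 14.4% of all tested genes. It was at 289, 314 and 323 scaled CPM under siRNA2, and the siRNA1 libraries were lower by 0.17 on the log2 scale (SE 0.06, adjusted p = 0.0743, edgeR). TCF12 passed with DESeq2 (adjusted p = 0.0277) and when NTC replicate 2 was left out (0.0413). TCF3 had its lowest library under siRNA2, replicate 3, at 296 scaled CPM beside 365 and 414 in the other two. Without that library the TCF3 difference between siRNA1 and siRNA2 was -0.19 on the log2 scale and passed (adjusted p = 0.0464, edgeR), and with it the difference was -0.07. ID1 likewise passed without siRNA2 replicate 2 (log2 0.30, adjusted p = 0.0418, edgeR) and not with it (log2 0.16, adjusted p = 0.305).

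**Figure D3:**
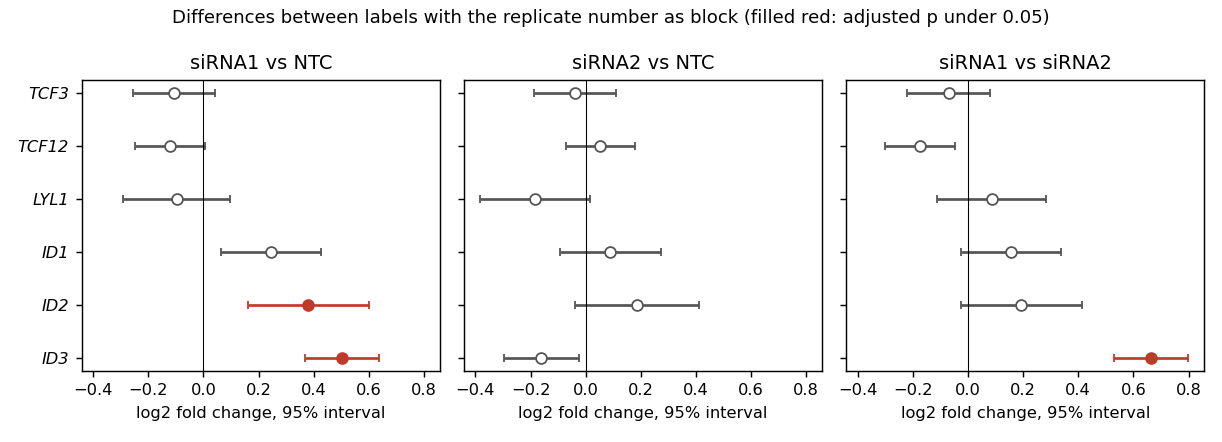
Log2 fold changes of 6 tested members between the labels with the replicate number as block; points are estimates, bars 95% intervals, and filled red points have an adjusted p under 0.05. TCF4, with 3 to 27 counts per library, is left out. ID3 and ID2 are filled in siRNA1 vs NTC, ID3 alone in siRNA1 vs siRNA2, and no point is filled in siRNA2 vs NTC.

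Most tested members also differed between replicate numbers, with replicate 2 the highest for ID2 and the lowest for ID3. By an F test of replicate number in the same edgeR fit, 5 of 7 members passed, where 35.8% of all tested genes did. Among these 5 is TCF4, which met the count filter only through the replicate 1 libraries. ID2 was highest in replicate 2 under every label, with a mean of 6.14 ± 0.64 scaled CPM (SD, n = 3) against 2.89 ± 0.23 in replicate 1, a factor of 2.12 (adjusted p = 3.55e-07, edgeR). ID3 was lowest in replicate 2 under every label, with 68.2 ± 16.5 scaled CPM against 100.4 ± 28.95 in replicate 3 (adjusted p = 3.32e-06, edgeR). ID1 was lowest in replicate 1 under every label (adjusted p = 0.00582, edgeR). For ID2 the factor between replicates 2 and 1 was larger than the 1.30-fold difference between siRNA1 and NTC. The same held for ID3, at 1.47 between replicates 3 and 2 beside 1.42-fold between these labels. For ID1 the factor was 1.26 between replicates 2 and 1, beside 1.18-fold.

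Among the E proteins, TCF3 had its highest mean in replicate 2, 1.18 times that of replicate 3 (adjusted p = 0.0294, edgeR), and TCF12 did not pass (adjusted p = 0.514). The TCF3 call was lost with library size alone as scaling. It was also lost without siRNA1 replicate 1, siRNA1 replicate 2 or siRNA2 replicate 2. TCF4 was highest in replicate 1, with 18, 27 and 17 counts in the NTC, siRNA1 and siRNA2 libraries and 3 to 14 in the other 6 (adjusted p = 0.00246, edgeR). TCF4 met the count filter only through these replicate 1 libraries, so its test of replicate number is no independent support. With DESeq2 TCF4 did not pass by replicate number. B-cell markers differed with the replicate number too: 6 of 6 tested ones passed that test, though CD79B was lowest in replicate 1 under every label. Like TCF4, BLK and CR2 met the count filter only through replicate 1. The summed level of the B-cell markers was 55.2 to 64.5 TPM in replicate 1, 45.0 to 54.0 in replicate 2 and 41.9 to 54.8 in replicate 3. Their part in the TCF4 result was not tested. All libraries are of the single line, and in such bulk RNA fewer cells with a transcript and less of it per cell cannot be told apart. LYL1 was even across the numbers (adjusted p = 0.311).

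Summed over the families, E protein mRNA exceeded ID mRNA in NTC and under siRNA2, and the sums were about level under siRNA1. The ratio of summed E protein TPM to summed ID TPM was 1.47, 1.77 and 1.29 in NTC replicates 1 to 3, 0.968, 1.29 and 0.866 in the libraries labelled siRNA1, and 1.54, 1.86 and 1.37 in those labelled siRNA2. Within all 3 replicate numbers the siRNA1 library had the lowest ratio, while replicate 2 under siRNA1 was level with NTC replicate 3. The ID sum was 299 ± 60.6 TPM under siRNA1 and 222 ± 35.8 TPM in NTC (SD, n = 3), and the E protein sum was 304 ± 20.5 and 330.4 ± 23.2 TPM. ID3 supplied most of the difference in the ID sum. The ratio is a description of mRNA, set by the members already tested singly, and carries no test of its own.

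**Figure D4:**
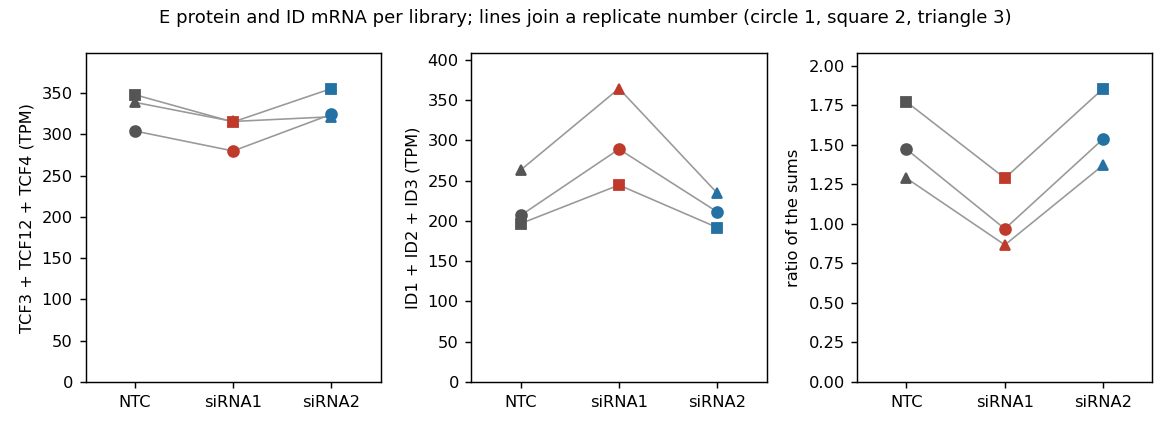
Summed TPM of TCF3, TCF12 and TCF4, summed TPM of ID1, ID2 and ID3, and the ratio of the sums, by siRNA label; markers are libraries and grey lines join a replicate number. The ratio dips under siRNA1 in each replicate number, to 0.866 to 1.29, against 1.29 to 1.77 in NTC.

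Among listed E protein targets of thymocytes, falls and no rises were called in the libraries labelled siRNA1. Of 24 genes known to respond to E proteins in early T or B cells, 23 were tested, and 13 fell and 0 rose against NTC, with a median log2 difference of -0.27 beside 0.00 over all tested genes, of which 5.93% fell. With strand sums CXCR5 also passed, higher. Falls of IL7R, NOTCH3, DNTT and IGLL1 were known from earlier results of these data when the list was drawn up. Without them 9 of 19 fell, with a median of -0.21. The whole list was chosen with earlier results of these data known, so these 19 genes are not an independent check. Without the block 4 of the 23 fell with edgeR, where 1.28% of all genes passed, and 7 with DESeq2. Against siRNA2 12 of 23 were lower under siRNA1, where 5.27% of all genes were. Between siRNA2 and NTC 0 of 23 passed with edgeR, with a median of -0.09, and 2 passed with DESeq2 (DNTT and IGLL1, both lower). At an unadjusted p under 0.05 edgeR counted 5 of the 23, and 1553 of all 18554 tested genes.

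The 5 targets with the largest falls were IGLL1, DNTT, IL7R, RAG2 and RAG1. IGLL1, a surrogate light chain gene, was 3.23-fold lower (22.6 ± 4.24 to 6.97 ± 1.32 scaled CPM, SD, n = 3, adjusted p = 2.02e-10, edgeR). DNTT, the terminal transferase that adds untemplated bases at receptor gene joins, was at 47.4, 30.3 and 46.0 scaled CPM in NTC and at 19.4, 12.5 and 17.0 in the libraries labelled siRNA1, 2.52-fold lower (adjusted p = 8.85e-12, edgeR). IL7R, a cytokine receptor of early thymocytes, was 2.52-fold lower (adjusted p = 7.02e-09, edgeR). IGLL1, DNTT and IL7R were lower in every siRNA1 library than in any NTC library and also passed without the block.

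RAG2, a subunit of the recombinase, was at 8.997, 12.8 and 22.5 scaled CPM in NTC and at 3.55, 6.19 and 8.16 under siRNA1. It was 2.44-fold lower (adjusted p = 2.86e-09 with the block and 0.221 without, edgeR), and its partner RAG1 was 2.17-fold lower (adjusted p = 1.3e-07 with the block and 0.302 without). The remaining genes of the list that fell were NOTCH3, NOTCH1, CD4, TCF7, BCL11B, GFI1, LEF1 and CXCR4, by log2 values from -0.21 to -0.79. PTCRA, the pre-T-cell receptor alpha gene and a classical E protein target, did not move with them: it was at 0.36 ± 0.23 scaled CPM in NTC and 0.50 ± 0.31 under siRNA1 (SD, n = 3, adjusted p = 0.212, edgeR). HES1, CD3E, CDK6, SOCS1, FOXO1 and THEMIS did not pass either. Nor did CXCR5, CDKN1A and VPREB1, which had only 9 to 43, 8 to 21 and 2 to 15 counts per library. Their log2 differences were 0.35 (SE 0.26), 0.29 (SE 0.34) and -0.80 (SE 0.44), so these 3 cannot be read as unchanged. Of the 12 T-cell markers, of which only CD3E is also on the target list, 1 rose (CD7, log2 0.53) and 3 fell (CD2, -0.63, CD3G, -0.44, and TRBC1, -0.35). Their summed level overlapped between siRNA1 (5048 to 5204 TPM) and NTC (5123 to 5259 TPM), and the part of these markers in the result was not tested.

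**Figure D5:**
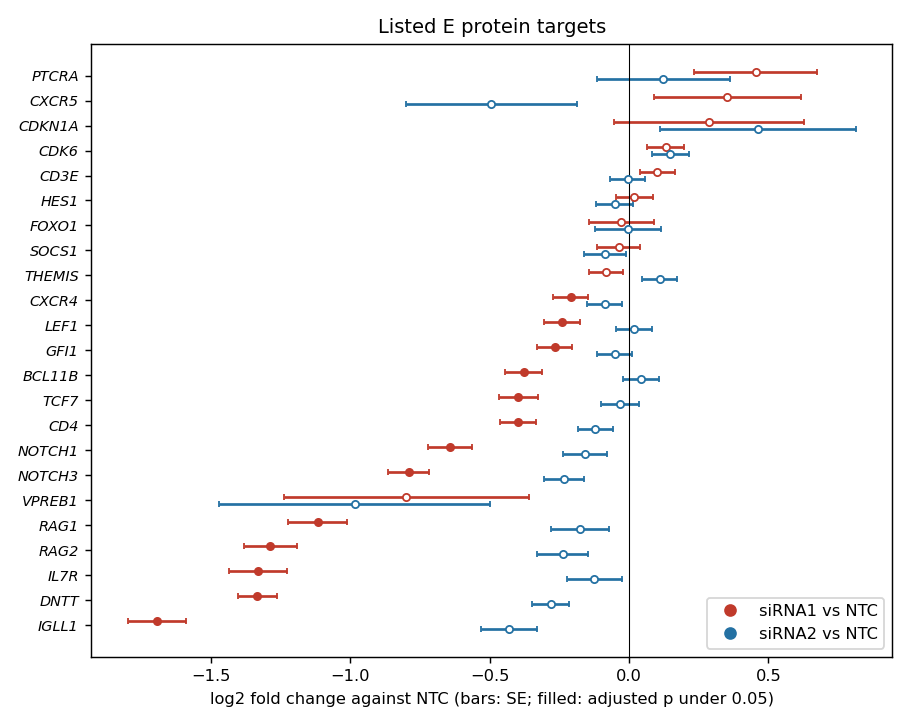
Log2 fold changes of the 23 tested E protein targets against NTC for siRNA1 (red) and siRNA2 (blue), with the replicate number as block; bars are SE and filled points have an adjusted p under 0.05. The 13 filled red points run from CXCR4 at -0.21 to IGLL1 at -1.69, and no blue point is filled.

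Genes that act with the members passed in both directions between siRNA1 and NTC, where 5.48% of all tested genes rose and 5.93% fell. Of 8 tested LMO partners 1 rose and 2 fell, and of 11 tested cofactors 1 rose and 1 fell. The list called LMO partners also holds family relatives of the members: ID4, LMO3, LMO4 and TAL2. Of 13 partners of the LMO complexes 8 were tested against NTC, and under siRNA1 LDB1, the adaptor that binds LMO proteins, rose (log2 0.30, adjusted p = 0.00343, edgeR) while SSBP2, which stabilizes LDB1, and RUNX1 fell (-0.26 and -0.25). GATA3, the GATA factor of T cells, was at a median of 162 TPM, LDB1 at 224 TPM and LMO4 at 11.95 TPM. GATA1, GATA2, LMO3, LDB2 and ID4 failed the filter. The bridging partners were thus present without TAL1, LMO1 or LMO2. Of 12 cofactors of E proteins 11 were tested, of which KAT2B, an acetyltransferase, rose (0.27) and KDM1A, a histone demethylase, fell (-0.28). Without the block none of these 5 calls held with edgeR or limma-voom, and those of LDB1 and KDM1A held with DESeq2. Without the replicate 1 libraries 0 of the partners and cofactors passed. Between siRNA2 and NTC 0 of 8 partners and 0 of 11 cofactors passed with edgeR, and 0 with DESeq2. At an unadjusted p under 0.05 edgeR counted none of them, and 1553 of all 18554 tested genes.

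Of 16 genes known as TAL1 or LMO2 targets in T-ALL 7 were tested, and under siRNA1 MYB, TRIB2 and ETV6 fell (log2 -0.53, -0.27 and -0.21). Over all tested genes 5.48% rose and 5.93% fell in siRNA1 vs NTC. The fall of MYB was known when the list was made, and MYB alone passed without the block (adjusted p = 0.00680, edgeR). Without the replicate 1 libraries 1 of 8 tested targets passed. Of 19 genes for the control and turnover of ID proteins 15 were tested. TGFBR2 and BMPR2, receptors of signals to which ID genes respond, rose (0.33 and 0.24). CDC20, an activator of the ubiquitin ligase that degrades ID proteins, also rose (0.22), and USP1, a deubiquitinase known to stabilize ID proteins, fell (-0.31). Of these 4, none passed without the block with edgeR, and TGFBR2 did with DESeq2. TGFBR1 (-0.12), SMAD1, SMAD3, SMAD4 and SMAD5 did not pass against NTC, and BMPR1A and SMAD7 failed the filter. A link between these genes and ID3 or ID2 was not tested. The list medians were -0.21 for the targets and -0.02 for the 15 genes of ID control and turnover, beside 0.00 over all tested genes. Between siRNA2 and NTC 0 of 7 and 0 of 15 passed with edgeR, and 0 with DESeq2. At an unadjusted p under 0.05 edgeR counted 1 and 2 of them, and 1553 of all 18554 tested genes. Of 22 further tissue-restricted or repressor bHLH genes 20 failed the filter. BHLHE40, a repressor of the DEC family, rose under siRNA1 from 67.9 ± 3.78 to 99.7 ± 12.7 scaled CPM (SD, n = 3). Its log2 difference was 0.55 (adjusted p = 0.000272 with the block and 0.168 without, edgeR), and it passed without the block with DESeq2. BHLHE40 did not pass between siRNA2 and NTC (0.26, adjusted p = 0.377, edgeR) or between siRNA1 and siRNA2 (0.29, adjusted p = 0.0507, edgeR). Its siRNA2 libraries were at 109.5, 70.7 and 68.1 scaled CPM, the first level with the highest siRNA1 library (109.3).

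The genes whose pattern over the 9 libraries was most like that of ID3 were AC021054.1, RSAD2 and PCED1B-AS1. Likeness was the root mean square difference of centred log2 CPM over the 9 libraries among 12553 genes with a mean of at least 1 CPM, and it was 0.088, 0.12 and 0.13 beside a spread of 0.37 for ID3 itself. AC021054.1 and PCED1B-AS1 are noncoding genes, and RSAD2 encodes an interferon-induced antiviral enzyme. For ID2 they were PYGM, the muscle glycogen phosphorylase, PRR7-AS1 and MATR3, at 0.084, 0.13 and 0.14 beside a spread of 0.47. MATR3 is annotated as overlapping gene models of the same symbol, so its count is uncertain. ID2 itself overlaps the antisense gene ID2-AS1 by 38 exonic bases, which had 34 counts over the 9 libraries, while the counts of the other detected members met no exonic overlap with a counted gene.

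By GENCODE release 29 on GRCh38 all 10 members are protein-coding genes and their counts cover exons. The ID genes lie at chr20:31605283-31606515 (ID1, plus strand), chr2:8678845-8684453 (ID2, plus) and chr1:23557918-23559794 (ID3, minus). TCF3 spans chr19:1609290-1652605 (minus), TCF12 chr15:56918623-57299281 (plus) and TCF4 chr18:55222331-55664787 (minus). LYL1 lies at chr19:13099033-13103161, TAL1 at chr1:47216290-47232220, LMO1 at chr11:8224304-8268716 and LMO2 at chr11:33858576-33892289, all on the minus strand.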

How the data were processed

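The deposited tables hold raw counts of reads per gene, 1 table per library, without normalization, as the deposited values show. They carry 1 count without regard to strand, used here because the kit does not mark strand per the labels' protocols, and 2 by strand. Per the submitters' processing notes, GRCh38 was the build; an aligner or annotation is not given in the sources used here. GENCODE 29 matched 57492 of 58096 identifiers.

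Genes were tested with edgeR 4.0.16 (TMM, filterByExpr by group with minimum count 10 and total 15, 18554 genes, quasi-likelihood test, Benjamini-Hochberg) in 1 fit of all 9 libraries with the replicate number as block. The labels give the numbers, and libraries of the same number deviated together (r across genes 0.383 to 0.623 in 9 of 9 pairs). For different numbers r was -0.445 to 0.0693. Deviations were taken from the group means, so positive values for the same number push those for different numbers to be negative. TPM used merged exon lengths. Pairs of replicates differed beyond counting noise. On simulated counts for siRNA1 vs NTC (18265 genes) 94% of 1.5-fold and 100% of 2-fold changes were recovered. False calls made up 16 of 213. The changes were placed on genes with a mean of at least 1 CPM. None was below 1.5-fold, so recovery of differences as small as those of ID3 and ID2 against NTC was not simulated. Depth (58305492 to 99524663 counts) makes counting error small above a few CPM. PCR reads are not independent molecules, so limits cover counting error only. Alternatives were other scalings, filters, DESeq2, limma-voom, no block, strand sums, fewer groups and left-out libraries.

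The members and lists were chosen with earlier results of these data known. Named are all members, TLX1, up to 4 called genes per list and comparison by adjusted p, and the 3 genes most like each member that passed between the labels. An item of the E protein target list is not reported here. Other list members named were chosen after their values were seen.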

Additional observations from a re-analysis of the deposited data

How the results depend on the processing

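In siRNA1 vs NTC 2 members passed with the replicate block and 0 without it by edgeR, DESeq2 or limma-voom. Between siRNA1 and siRNA2 1 passed with it, 0 without it by edgeR or limma-voom, 1 (ID3) without it by DESeq2, and 2 by DESeq2 with it. Leaving out 1 library at a time gave 1 to 3 members in siRNA1 vs NTC and 1 to 2 in siRNA1 vs siRNA2. Without the replicate 1 libraries 3 members, not 5, differed by replicate number. With DESeq2 (TCF4 lost) or library size alone (TCF3 lost) 4 members did.

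Changes of sign concerned differences that passed under no setting. For siRNA2 vs NTC these were TCF3 without NTC replicate 3 (0.03) or siRNA2 replicate 3 (0.077), ID1 without siRNA2 replicate 2 (-0.057), and TCF4 without NTC replicate 2 (0.10) or siRNA2 replicate 2 (0.23). TCF4 turned in siRNA1 vs NTC without NTC replicate 2 (0.22) or siRNA1 replicate 3 (0.06), and in siRNA1 vs siRNA2 with DESeq2 (-0.045) and without siRNA1 replicate 1 (-0.06), siRNA2 replicate 2 (-0.30) or the replicate 1 libraries (-0.082). With 1 library left out, the log2 differences from NTC under siRNA2 ranged from -0.10 to 0.077 for TCF3, from -0.057 to 0.19 for ID1 and from -0.70 to 0.23 for TCF4. Those of TCF4 ranged from -0.34 to 0.22 in siRNA1 vs NTC and from -0.30 to 0.59 in siRNA1 vs siRNA2.

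Over all genes, siRNA1 vs NTC gave 2117 calls, 238 without the block (553 by DESeq2, 230 by limma-voom), 1139 without the replicate 1 libraries and as few as 1163 without 1 library. The siRNA1 vs siRNA2 comparison gave 1958, 201 without the block (522 and 188), 1015 and 980. The siRNA2 vs NTC comparison gave 28, 0 without the block (392 at an unadjusted p under 0.05; 4 by DESeq2, 0 by limma-voom), 105 by DESeq2, 158 with a filter of 1 count, 51 with strand sums, 105 with 2 groups, 93 without the replicate 1 libraries and 4 to 108 without 1 library. Replicate number gave 6650 and 3228 without the replicate 1 libraries. With 1 library left out, siRNA1 vs NTC gave 10 to 13 falls among E protein targets, 1 to 4 among TAL1 and LMO2 targets, 0 to 2 among LMO partners and among cofactors, and 1 to 3 rises among ID control genes. Depth limits TCF4 and the silent genes. The cause of these changes was not tested.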
